A study of Homo sapiens with 12 samples.

Results

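Antisense genes are named for another gene, with -AS and a number after that gene's symbol, and most are RNA genes on its opposite strand. The table of expression values holds 1788 such rows among 61466 genes. The 486 described here reached 1 FPKM in 3 or more of the 12 libraries, where FPKM is the number of fragments scaled by gene length and by library depth. A further 1301 rows did not reach that level, 280 of the rows were listed at 0 in every library, and 1 row was left out by name. The gene whose symbol stands before -AS is called the partner. A row for it was present for 482 of the 486 antisense genes (469 different partners, since 25 antisense genes share 12 partners), and 416 partners passed the same level rule.

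RNA was taken from SU-DHL-8 and Farage, established human lines of diffuse large B cell lymphoma, a cancer of mature B lymphocytes. Both are labelled as lymph node tissue, and the genotype field reads WT for the control libraries and holds only the treatment for the others. Each line was sampled at 12 h as control or after treatment with morusinol, a prenylated flavonoid of mulberry, with 3 libraries in each of the 4 groups. The dose, the kind of any vehicle and whether replicates were separate cultures are not stated, so p-values measure only the spread between these libraries. Comparisons ask which antisense genes and partners changed with morusinol in each line and where the lines differed.

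Transcription from a mammalian promoter often runs both ways, and a head to head antisense RNA can start near the partner's promoter and lead away from it. Some head to head RNAs start within the partner and run back past its start. Other antisense RNAs lie wholly inside the partner's body, or start beyond its end and run back towards it. Many such RNAs are short-lived because the nuclear exosome, a complex of exoribonucleases and its adaptors, degrades them soon after the Integrator complex or the cleavage machinery ends their transcription. Some antisense RNAs act on their partner's transcription, splicing or RNA stability, and others have no known role.

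Depth estimated from the values was lowest in SU-DHL-8 morusinol library 2, at 6.05 M (mega) fragments, and highest in Farage control library 1, at 19.0 M. At the median length of the antisense genes, 1218 exon bases, 1 FPKM stood for 7.37 to 23.1 fragments. Whether fragments were counted by strand is not stated, so those of an antisense gene and of a partner that share bases cannot be told apart. All 6 markers of B lymphocytes were detected in each group, with a summed FPKM of 230 to 368 in SU-DHL-8 and 613 to 1021 in Farage. With morusinol 2 of these 6 rose and 4 fell in SU-DHL-8, and 5 fell in Farage. The summed FPKM of 6 markers each was 0.477 to 2.31 for T and NK cells, 0.565 to 1.80 for myeloid cells, and 0.0420 to 2.17 for stromal, endothelial and epithelial cells.

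Most of the antisense genes were low. Mean FPKM over the 12 libraries ran from 0.389 to 29.5 with a median of 1.29, and 467 of the 486 had a mean under 5. A total of 101 reached 1 FPKM in all 12 libraries and 65 in exactly 3. At the edge of the rule, the third highest value of TMEM92-AS1 was 1.0002 and that of A1BG-AS1 1.001, while those of HSDL2-AS1 and FOXD3-AS1, just outside, were 0.991. Where both had a row, 397 antisense genes had a lower mean than their partner and 85 a higher one. The median ratio of partner to antisense gene was 6.14 over the 428 antisense genes with a tested partner. The rule was met through the SU-DHL-8 morusinol libraries alone by 23 antisense genes, through Farage control alone by 7, through Farage morusinol alone by 2 and through SU-DHL-8 control alone by 0. Those 32 had to differ between groups, so they are described by their values with no fold change or test of their own, and counts over the 486 include them.

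GENCODE release 29 placed 483 of the 486 on GRCh38. By its coordinates 189 lay head to head with the partner (median distance between the starts 750 bases, under 1000 in 118), 183 lay inside the partner, 79 lay tail to tail, 25 spanned the partner and 3 lay on its strand. The remaining 7 could not be placed against a partner. Head to head here includes pairs whose spans overlap, and 42 of the 189 had no exon bases opposite another gene's exons. The annotation classed 410 as antisense, 33 as lincRNA and 29 as processed transcripts, and also 3 as protein-coding and 2 as transcribed pseudogenes. Exons of 323 overlapped exons of some gene on the opposite strand, with a median share of 7.73% of their exon bases over all those placed, and 29 had more than 50% of their bases in such an overlap. A further 160 had no such overlap.

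In SU-DHL-8 the antisense genes were called higher far more often than lower. With morusinol 150 of the 486 rose and 29 fell (adjusted p under 0.05), against 25.1% of all 17574 genes tested higher and 21.6% lower (46.8% in either direction). Because most antisense genes are low, the 10225 genes with a mean FPKM under 5 are a background closer in level. Of these 21.8% were higher and 8.95% lower (30.8% in either direction). Low genes whose promoter sequence could be matched, given further on, rose more often than that. Of the 467 antisense genes under that mean, 142 rose and 26 fell. Among the 362 that had 3 Farage libraries at 1 FPKM or more, a choice that does not use the SU-DHL-8 values, 88 rose and 28 fell. That is 24.3% and 7.73%, beside 19.3% and 9.06% of the low genes and 24.2% and 23.6% of all genes chosen in the same way. Under that choice the share of rises was close to that of all genes and above that of low genes, and the share of falls was below both.

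In Farage the balance lay the other way, with 39 antisense genes higher and 81 lower. The background was 21.9% higher and 21.2% lower over all genes (43.1% in either direction), and 14.2% higher and 14.0% lower over genes with a mean FPKM under 5 (28.2%). Among the 315 with 3 SU-DHL-8 libraries at 1 FPKM or more, 26 rose and 45 fell (8.25% and 14.3%), beside 15.0% and 11.9% of low genes chosen in the same way. The difference of the responses, Farage minus SU-DHL-8, was called for 13 antisense genes in the higher and 124 in the lower direction, where all genes gave 17.3% and 17.6% (34.9% in either direction) and low genes 8.1% and 16.1% (24.2%). Of the 214 with 3 libraries at 1 FPKM in each line 7 differed upward and 57 downward (3.27% and 26.6%), beside 21.3% and 18.0% of the 11969 genes chosen in the same way. Those 11969 genes are not matched by level, with a median mean FPKM of 6.70 against 2.11 for the 214.

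The summed level moved the same way. The summed FPKM of the 486 was 758, 723 and 819 in SU-DHL-8 control and 1012, 1017 and 1041 in SU-DHL-8 morusinol, so the groups did not overlap. It was 951, 1068 and 929 in Farage control and 885, 855 and 910 in Farage morusinol, again without overlap. Without the 32 that met the level rule through 1 group alone, a choice made after seeing the data, the sums were 710.5 to 804 and 971 to 999 in SU-DHL-8 and 913 to 1044 and 838 to 891 in Farage. Without those 32, 125 rose and 29 fell in SU-DHL-8 and 34 rose and 74 fell in Farage. The level rule still leans on the groups, since 71 antisense genes would not pass without the SU-DHL-8 morusinol libraries and 20 without the SU-DHL-8 controls, against 61 without Farage control and 43 without Farage morusinol. SU-DHL-8 morusinol library 2, the shallowest, had 43 antisense genes at 0, against 28 to 38 in the other libraries of that line. With each of the 12 libraries left out in turn, the counts ran from 129 to 150 higher and 16 to 31 lower in SU-DHL-8 and from 27 to 39 higher and 58 to 85 lower in Farage.

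Both lines together left 239 antisense genes not called in either. In SU-DHL-8 111 rose without a call in Farage, 26 rose in both lines and 13 rose in SU-DHL-8 and fell in Farage. A total of 56 fell in Farage without a call in SU-DHL-8, 12 fell in both lines, 16 fell in SU-DHL-8 and 12 rose in Farage with no call in the other line, and TIAM1-AS1 fell in SU-DHL-8 and rose in Farage. A call in 1 line alone is no test of a difference between the lines. The 26 that rose in both hold CEBPB-AS1, DLGAP1-AS1, DLGAP1-AS2, THAP9-AS1, MAPKAPK5-AS1, MED8-AS1, HEXIM2-AS1 and CARS1-AS1, named here as examples after their values were seen.

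**Figure D1:**
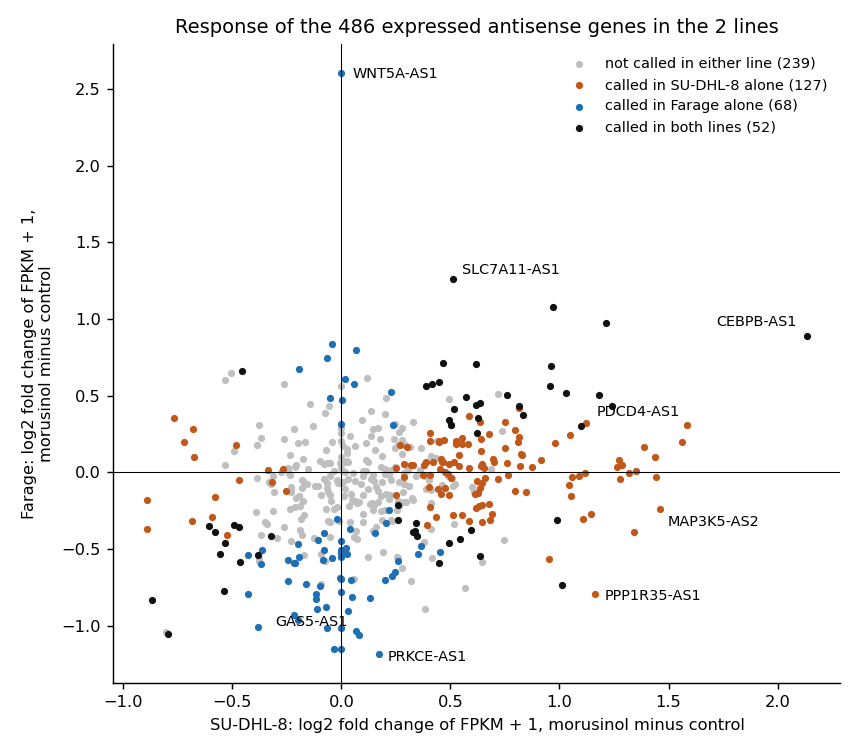
Log2 fold change of FPKM + 1, morusinol minus control, of each of the 486 antisense genes in SU-DHL-8 (x axis) and Farage (y axis), coloured by the line in which it was called at adjusted p under 0.05. Points called in SU-DHL-8 alone (127) lie mostly right of 0, and points called in Farage alone (68) mostly below 0, with WNT5A-AS1 at the top.

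Arrangement against the partner went with the size of the SU-DHL-8 balance. Of the 189 head to head antisense genes 84 rose and 11 fell in SU-DHL-8 (44.4% and 5.82%), and of the 118 whose start lay within 1000 bases of the partner's start 64 rose and 6 fell. Of the 183 inside the partner 30 rose and 14 fell (16.4% and 7.65%), a share of rises under that of low genes. Tail to tail genes gave 23 higher and 4 lower of 79, and those around the partner 8 higher and 0 lower of 25. In the subset chosen by Farage levels the head to head genes were at 34.6% higher and 8.66% lower, and the genes inside the partner at 14.2% and 8.78%. The arrangements also differed in level between the untreated lines. In Farage control against SU-DHL-8 control 88 genes inside the partner were higher and 20 lower, and 53 and 55 of the head to head genes. Of the 183 inside the partner 103 had 3 SU-DHL-8 libraries at 1 FPKM or more, against 132 of the 189 head to head. The part of these levels in the counts was not tested, and no test of a difference between the arrangements was run.

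In Farage the genes inside the partner gave 11 higher and 40 lower of 183 (6.01% and 21.9%), and the few around the partner 2 higher and 6 lower of 25. Head to head genes were balanced there, with 18 higher and 22 lower of 189. Tail to tail genes gave 6 higher and 12 lower. For the difference of the responses 60 head to head genes were lower in Farage and 6 higher. With any 1 of the 12 libraries left out, head to head genes kept 72 to 85 rises in SU-DHL-8 and genes inside the partner 30 to 43 falls in Farage. When each library was rescaled to the same sum (TPM), the genes inside the partner gave 22 higher and 16 lower in SU-DHL-8, that is 57.9% of calls higher in place of 68.2%.

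**Figure D2:**
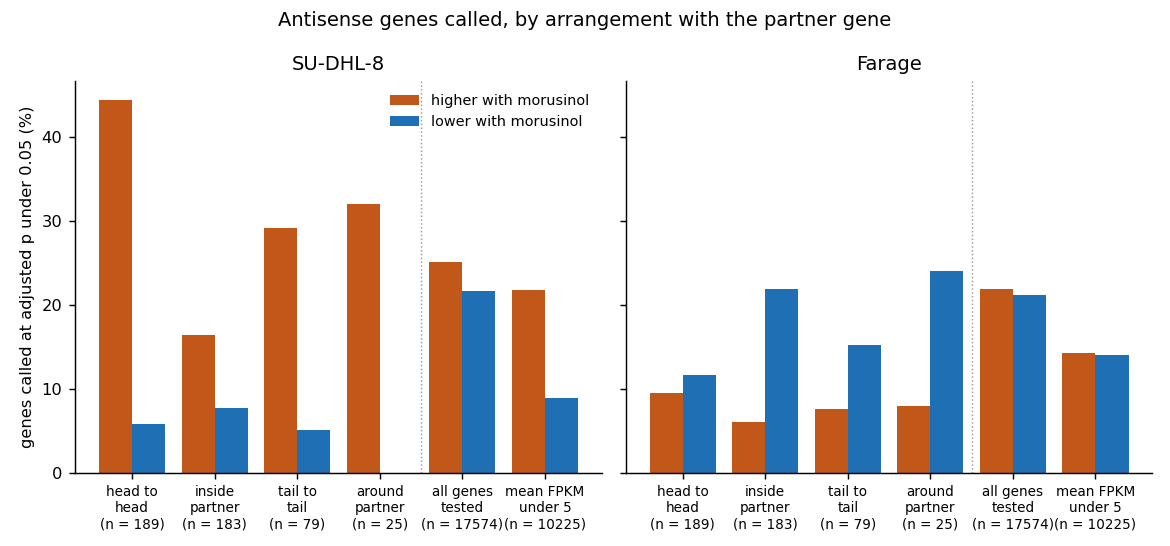
Share of antisense genes called higher (orange) or lower (blue) with morusinol, in percent, for 4 arrangements with the partner, beside all genes tested and genes with a mean FPKM under 5 (right of the dotted line). Head to head genes stand at 44.4% higher in SU-DHL-8, and genes inside the partner at 21.9% lower in Farage.

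The partners gave counts of both directions. Of the 416 tested partners 142 rose and 124 fell in SU-DHL-8, and 158 rose and 109 fell in Farage. After rescaling to TPM the SU-DHL-8 split was 110 higher and 146 lower, so its direction depends on the scaling. Partners of head to head genes gave 62 higher and 53 lower in SU-DHL-8 and 68 higher and 40 lower in Farage. The share of low genes is not their background, since partners are mostly protein-coding, and of the 10507 protein-coding genes tested 30.4% were higher and 32.2% lower in SU-DHL-8, and 32.6% higher and 25.8% lower in Farage. The Farage partners, at 38.0% and 26.2%, leaned the same way as those genes.

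The promoter windows of the antisense genes differed in their content of CpG, the dinucleotide that is frequent in the promoters of widely expressed genes and depleted in most of the genome. RefSeq windows on GRCh38.p14, from 250 bases before to 50 after the annotated start, were matched by symbol for 357 of the 486, taking the first window listed. RefSeq and GENCODE starts can differ, by 0 to 571 bases for the antisense genes printed here. The 571 bases are those of CEBPB-AS1, whose window lies wholly within the exon bases of CEBPB (chr20:50190734-50192689), so its CpG content is also that of CEBPB sequence. The windows below are examples, picked for a high CpG count from genes described further on. Being picked by that count, they do not bear on whether CpG content went with direction. CG is in capitals. CEBPB-AS1 (chr20:50192020-50192319, minus strand) and its partner CEBPB (chr20:50190333-50190632, plus strand) held 31 each, STARD7-AS1 (chr2:96208166-96208465, plus strand) 42, DHX9-AS1 (chr1:182839542-182839841, minus strand) 38 and OIP5-AS1 (chr15:41283740-41284039, plus strand) 23.
CEBPB-AS1: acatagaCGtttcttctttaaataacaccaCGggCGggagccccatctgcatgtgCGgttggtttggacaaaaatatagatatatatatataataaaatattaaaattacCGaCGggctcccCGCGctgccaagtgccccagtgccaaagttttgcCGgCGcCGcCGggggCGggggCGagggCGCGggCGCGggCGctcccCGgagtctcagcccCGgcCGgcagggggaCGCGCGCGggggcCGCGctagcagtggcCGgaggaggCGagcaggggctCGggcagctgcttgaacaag
CEBPB: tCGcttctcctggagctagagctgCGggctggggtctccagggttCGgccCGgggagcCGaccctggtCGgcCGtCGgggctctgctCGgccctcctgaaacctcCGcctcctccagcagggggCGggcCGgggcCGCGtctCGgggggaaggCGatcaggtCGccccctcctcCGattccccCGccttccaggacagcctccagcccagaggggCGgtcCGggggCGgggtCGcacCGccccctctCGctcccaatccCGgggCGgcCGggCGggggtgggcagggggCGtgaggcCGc
STARD7-AS1: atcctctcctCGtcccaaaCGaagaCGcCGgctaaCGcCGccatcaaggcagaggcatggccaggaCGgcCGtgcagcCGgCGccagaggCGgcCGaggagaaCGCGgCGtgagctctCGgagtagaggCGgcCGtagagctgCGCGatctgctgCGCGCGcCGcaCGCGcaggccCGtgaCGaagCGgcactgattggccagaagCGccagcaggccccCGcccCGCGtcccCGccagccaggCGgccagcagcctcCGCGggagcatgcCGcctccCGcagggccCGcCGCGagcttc
DHX9-AS1: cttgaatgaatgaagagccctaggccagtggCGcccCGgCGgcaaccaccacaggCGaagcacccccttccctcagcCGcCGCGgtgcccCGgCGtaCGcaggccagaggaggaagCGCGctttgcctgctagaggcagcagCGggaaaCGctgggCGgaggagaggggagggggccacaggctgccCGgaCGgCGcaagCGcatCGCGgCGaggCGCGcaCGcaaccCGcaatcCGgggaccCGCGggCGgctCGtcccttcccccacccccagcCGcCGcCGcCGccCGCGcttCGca
OIP5-AS1: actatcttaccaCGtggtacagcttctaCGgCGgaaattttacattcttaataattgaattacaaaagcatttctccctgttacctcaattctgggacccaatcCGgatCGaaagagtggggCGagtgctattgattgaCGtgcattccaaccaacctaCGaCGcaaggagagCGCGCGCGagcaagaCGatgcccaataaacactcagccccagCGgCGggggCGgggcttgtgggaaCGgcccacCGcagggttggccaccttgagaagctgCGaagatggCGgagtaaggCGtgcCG

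The next windows, also picked as examples, belong to antisense genes that lie inside their partner and are described with Farage. PRKCE-AS1 (chr2:45675471-45675770, minus strand) and BCAR3-AS1 (chr1:93591718-93592017, plus strand) held 4 CG each, and C12orf75-AS1 (chr12:105326968-105327267, minus strand) and NAALADL2-AS2 (chr3:175271047-175271346, minus strand) none. These 4 genes fell in Farage with morusinol. WNT5A-AS1 (chr3:55487368-55487667, plus strand), which rose there, held 14, the median of all 27305 windows.
PRKCE-AS1: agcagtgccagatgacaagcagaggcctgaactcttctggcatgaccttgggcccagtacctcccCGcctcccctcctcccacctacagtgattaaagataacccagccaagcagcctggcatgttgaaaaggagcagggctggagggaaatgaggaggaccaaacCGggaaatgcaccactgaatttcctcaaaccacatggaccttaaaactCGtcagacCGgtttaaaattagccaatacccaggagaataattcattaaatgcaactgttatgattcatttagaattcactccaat
BCAR3-AS1: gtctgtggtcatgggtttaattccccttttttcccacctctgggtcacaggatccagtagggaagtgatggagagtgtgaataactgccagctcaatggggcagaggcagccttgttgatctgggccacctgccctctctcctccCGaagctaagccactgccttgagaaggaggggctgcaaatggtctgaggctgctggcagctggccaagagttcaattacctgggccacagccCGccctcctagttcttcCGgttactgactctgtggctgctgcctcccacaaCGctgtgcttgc
C12orf75-AS1: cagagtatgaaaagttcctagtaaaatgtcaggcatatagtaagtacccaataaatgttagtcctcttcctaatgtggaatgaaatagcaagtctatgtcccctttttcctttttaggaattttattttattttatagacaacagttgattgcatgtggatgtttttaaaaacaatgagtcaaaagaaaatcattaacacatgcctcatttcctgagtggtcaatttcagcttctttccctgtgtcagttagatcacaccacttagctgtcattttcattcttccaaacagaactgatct
NAALADL2-AS2: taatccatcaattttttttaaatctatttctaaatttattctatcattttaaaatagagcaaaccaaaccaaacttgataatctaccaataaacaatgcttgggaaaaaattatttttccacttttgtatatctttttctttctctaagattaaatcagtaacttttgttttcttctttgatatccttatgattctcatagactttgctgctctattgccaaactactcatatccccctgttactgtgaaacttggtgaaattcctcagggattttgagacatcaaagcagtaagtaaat
WNT5A-AS1: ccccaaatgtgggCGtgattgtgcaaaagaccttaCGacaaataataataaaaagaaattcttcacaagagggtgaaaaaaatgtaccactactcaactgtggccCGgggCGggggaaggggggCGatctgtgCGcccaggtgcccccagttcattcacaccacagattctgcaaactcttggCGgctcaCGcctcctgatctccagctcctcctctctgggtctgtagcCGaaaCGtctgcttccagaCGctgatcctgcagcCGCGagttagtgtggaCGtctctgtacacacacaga

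The median CG count per window was 14 over all windows, 19 over the 357 antisense genes, 22.5 over the 158 head to head and 4 over the 116 inside the partner. The 115 antisense genes higher in SU-DHL-8 had a median of 25 and the 57 lower in Farage a median of 6. For the 30 higher in Farage it was 23, and for the 20 lower in SU-DHL-8 it was 12. Split at an observed over expected CpG of 0.6, the 196 antisense genes at or above it gave 82 higher and 9 lower in SU-DHL-8, and the 161 below it 33 higher and 11 lower. In Farage those at or above it gave 20 higher and 19 lower and those below it 10 higher and 38 lower. Genes with a mean FPKM under 5 and a window moved less with this split in SU-DHL-8, at 34.0% higher in the CpG-rich set and 27.9% in the other. Both shares lie above the 21.8% of all low genes. The antisense genes, at 41.8% and 20.5% higher, stood above these low genes in the CpG-rich set and under them in the other. Falls were fewer among the antisense genes in both sets, at 4.59% and 6.83% beside 14.7% and 11.1%. In Farage these low genes shifted in the same direction as the antisense genes. They gave 28.3% higher and 13.3% lower in the CpG-rich set, and 17.9% and 19.5% in the other. CpG content and arrangement go together, since 110 of the 158 head to head windows and 25 of the 116 inside the partner were at or above 0.6, and their parts were not tested.

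**Figure D3:**
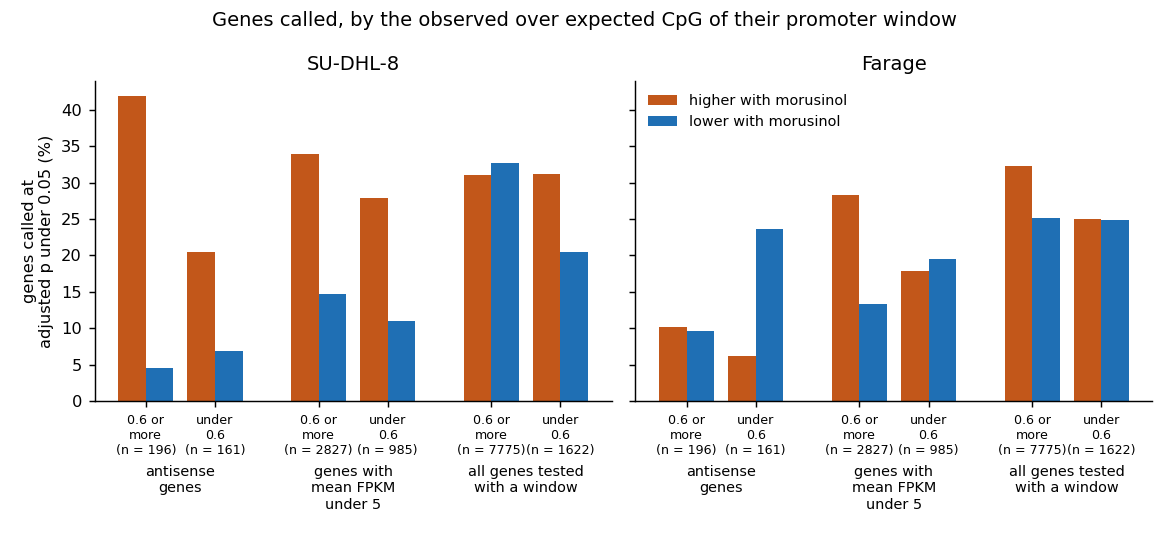
Share of genes called higher (orange) or lower (blue) with morusinol, in percent, by the observed over expected CpG of the promoter window (0.6 or more, under 0.6), for the antisense genes, for genes with a mean FPKM under 5 and for all genes tested that have a window. CpG-rich antisense genes stand at 41.8% higher in SU-DHL-8, and CpG-poor ones at 23.6% lower in Farage.

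Short motifs were searched on both strands of the same windows. Of 8 motifs, that of the factor NRF1 was found in 12.2% of the 115 windows of antisense genes higher in SU-DHL-8, in 7.003% of all 357 and in 6.29% of all windows. CCGGAAGT, a site of ETS factors, was found in 9.57% of those 115, 5.04% of the 357 and 4.44% of all. The letters TGATGNAA, the element of ATF4 with C/EBP factors, were found in 6 of the 357 (1.68%) and in 3.67% of all windows. CCAAT was found in 28.9% of the 357 and 35.7% of all, and TATAAA in 7.84% and 12.0%, with 3.48% of the 115. The NRF1 and ETS motifs themselves hold CG. The matches are a description of these windows and not binding sites.

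The largest SU-DHL-8 rise among the antisense genes was that of CEBPB-AS1 (chr20:50184598-50191498 on GRCh38, head to head with CEBPB). Its FPKM was 1.72, 1.24 and 1.19 in SU-DHL-8 control and 9.41, 9.54 and 9.32 with morusinol, a log2 fold change of FPKM + 1 (the scale of every fold change here, ± SE, 3 libraries per group) of 2.14 ± 0.09 (adjusted p = 2.6e-08). In Farage it was 0.249, 0.152 and 0.159 and then 1.28, 1.15 and 1.15, a change of 0.89 ± 0.09 (adjusted p = 2.3e-05). The groups did not overlap in either line. Its partner CEBPB, a basic leucine zipper transcription factor of stress and inflammatory responses, went from 32.2, 34.7 and 36.1 to 151, 138 and 143 in SU-DHL-8, a change of 2.04 ± 0.10 (adjusted p = 6.2e-08). In Farage CEBPB went from 3.05, 3.28 and 2.13 to 41.1, 41.6 and 39.6, a change of 3.46 ± 0.10 (adjusted p = 3.6e-09). CEBPB lies at chr20:50190734-50192689, so the annotated start of CEBPB-AS1 falls inside the exon bases of CEBPB. Fragments from the shared bases may count for both genes, and their share in the values of CEBPB-AS1 was not tested. The Farage change minus the SU-DHL-8 change was -1.25 ± 0.13 (adjusted p = 4.8e-05) for CEBPB-AS1 and 1.43 ± 0.14 (adjusted p = 3.3e-05) for CEBPB, and both started lower in Farage. Adding 1 to FPKM understates the change of a low gene. As ratios of mean FPKM the rises of CEBPB-AS1 were 6.82-fold in SU-DHL-8 and 6.38-fold in Farage, and with a pseudocount of 0.1 the difference was -0.52 (adjusted p = 0.149), so a difference between the lines was not seen on that scale.

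PDCD4-AS1 and TAPT1-AS1, also head to head, rose with their partners in SU-DHL-8. PDCD4-AS1 (chr10:110869868-110872233) went from 3.34, 2.93 and 4.02 to 14.4, 11.6 and 10.98 FPKM, a change of 1.59 ± 0.22 (adjusted p = 0.00015). PDCD4, an inhibitor of translation initiation that binds the helicase eIF4A, went from 11.6, 12.8 and 10.97 to 54.5, 57.9 and 59.7, a change of 2.19 ± 0.06 (adjusted p = 1.7e-09). In Farage PDCD4-AS1 stayed at or under 1.15 FPKM in all 6 libraries and was not called, while PDCD4 rose by 1.34 ± 0.06 (adjusted p = 5.6e-08). TAPT1-AS1 (chr4:16226685-16320140) went from 3.31, 2.05 and 3.24 to 10.3, 8.1 and 8.73, a change of 1.39 ± 0.15 (adjusted p = 2.2e-05), and TAPT1, a membrane protein linked to the primary cilium, changed by 1.44 ± 0.04 (adjusted p = 3.4e-09). All of these SU-DHL-8 groups were without overlap.

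Other large SU-DHL-8 rises came with a partner that changed little, was not called or was low. PCGF3-AS1 (chr4:762387-781849, tail to tail) went from 3.07, 1.96 and 3.57 to 9.95, 9.92 and 10.8 FPKM, a change of 1.56 ± 0.14 (adjusted p = 6.3e-06). Its partner PCGF3, a Polycomb ring finger protein, was at 5.36, 5.69 and 6.203 and then 6.04, 6.52 and 7.28 and was not called (adjusted p = 0.095). KCNK15-AS1 (chr20:44694892-44746021, head to head) went from 1.71, 2.13 and 1.6 to 6.17, 6.49 and 7.21, a change of 1.44 ± 0.13 (adjusted p = 6.6e-06), while the potassium channel gene KCNK15 stayed at or under 0.105 FPKM in every library. MAP3K5-AS2 went from 1.53, 1.96 and 3.18 to 8.33, 7.38 and 7.35, a change of 1.46 ± 0.19 (adjusted p = 9.6e-05). MAP3K5, the stress-activated kinase ASK1, rose by 0.39 ± 0.06 (adjusted p = 0.00043), and the other antisense gene of MAP3K5, MAP3K5-AS1, was not called in either line.

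CLCA4-AS1 is among the 23 that met the level rule through SU-DHL-8 morusinol alone, so its values carry no test. CLCA4-AS1 stood at 0.0599, 0.103 and 0.0618 FPKM in the SU-DHL-8 controls, at 1.84, 2.14 and 1.78 with morusinol, and at or under 0.303 in Farage. Its partner, the chloride channel accessory gene CLCA4, stayed under 0.5 FPKM in every library.

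**Figure D4:**
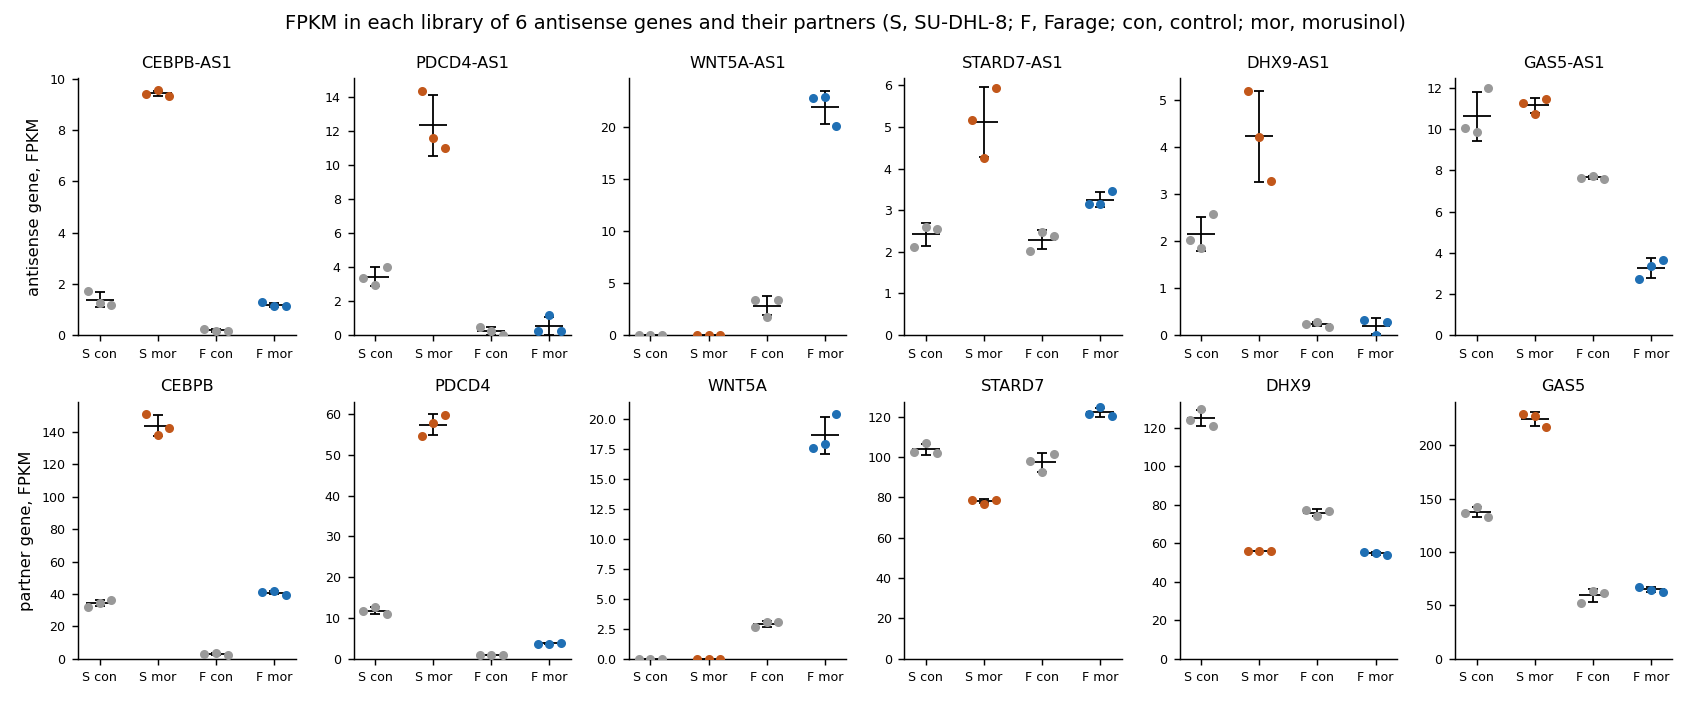
FPKM of 6 antisense genes (top) and their partners (bottom) in each of the 12 libraries (points), with the mean and SD of each group of 3 (bars). CEBPB-AS1 rises with its partner in both lines, PDCD4-AS1 in SU-DHL-8 and WNT5A-AS1 in Farage, STARD7-AS1 and DHX9-AS1 rise in SU-DHL-8 where the partner falls, and GAS5-AS1 falls in Farage from 7.65, 7.73 and 7.59 to 2.72, 3.34 and 3.67.

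In SU-DHL-8, 29 antisense genes fell against the 150 that rose. GLIPR1-AS1 (chr12:75483454-75489820, inside GLIPR1) went from 1.64, 2.49 and 1.76 to 0.357, 0.39 and 1.105 FPKM, a change of -0.89 ± 0.18 (adjusted p = 0.0021), with GLIPR1 itself not called there (adjusted p = 0.68). TSPOAP1-AS1, head to head and well above its partner, went from 4.97, 4.13 and 5.23 to 2.52, 2.94 and 2.88, a change of -0.61 ± 0.09 (adjusted p = 0.00022), and TSPOAP1 fell by 0.73 ± 0.10 (adjusted p = 0.00013). In Farage it changed by -0.35 ± 0.09 (adjusted p = 0.0086). EMC3-AS1 changed by -0.68 ± 0.13 (adjusted p = 0.0015), while EMC3, a subunit of the membrane protein insertase of the endoplasmic reticulum, was not called. OGFR-AS1 changed by -0.77 ± 0.19 (adjusted p = 0.0071) and OGFR, the opioid growth factor receptor, by -0.80 ± 0.06 (adjusted p = 2.5e-06). SLCO4A1-AS2 changed by -0.68 ± 0.18 (adjusted p = 0.0089) and SLCO4A1, an organic anion transporter, by -1.59 ± 0.10 (adjusted p = 3.4e-07).

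Calls of 3 of the largest falls in SU-DHL-8 were lost when single libraries were left out, with changes in those fits of -0.73 for PSPC1-AS2, -0.80 for PNN-AS1 and -0.59 for TONSL-AS1 where the adjusted p was highest. PSPC1-AS2 went from 3.84, 3.28 and 2.698 to 0.821, 0.879 and 2.49 FPKM, a change of -0.89 ± 0.32 (adjusted p = 0.042), and its adjusted p was 0.134 without morusinol library 1. PNN-AS1, head to head with the splicing-related gene PNN, went from 5.39, 6.05 and 4.85 to 3.41, 3.74 and 1.07, and its adjusted p of 0.036 became 0.099 without control library 2. TONSL-AS1, inside the replication repair gene TONSL, went from 1.76, 2.14 and 3.48 to 1.65, 0.579 and 0.781, and its adjusted p of 0.031 became 0.118 without control library 3. PSPC1-AS2 lost its call in 6 of the 12 fits that leave out a library, PNN-AS1 in 5 and TONSL-AS1 in 4. The partners also changed in SU-DHL-8, PSPC1 by -0.12 ± 0.03, PNN by -0.43 ± 0.06 and TONSL by -0.83 ± 0.08 (largest adjusted p = 0.0068).

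Farage had 1 rise well beyond the others. WNT5A-AS1 (chr3:55487699-55488308, inside the gene of the secreted signalling protein WNT5A) went from 3.38, 1.78 and 3.38 to 22.8, 22.8 and 20.1 FPKM, a change of 2.60 ± 0.15 (adjusted p = 4.3e-07). WNT5A went from 2.65, 3.02 and 3.04 to 17.6, 17.9 and 20.4, a change of 2.33 ± 0.08 (adjusted p = 7.1e-09). Both were listed at 0 in all 6 SU-DHL-8 libraries. The antisense gene has no exon bases opposite another gene's exons in the annotation, and its FPKM was close to that of WNT5A in both Farage groups.

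SLC7A11-AS1 (chr4:138057464-138178177, tail to tail) met the level rule through Farage morusinol alone. Its FPKM was 0.548, 0.825 and 0.494 in Farage control and 2.71, 2.4 and 3.59 with morusinol, groups that the level rule itself set apart. In SU-DHL-8 it was 0.245, 0.274 and 0.307 and then 0.773, 0.871 and 0.808, without overlap and under 1 FPKM. SLC7A11, the cystine importer that feeds glutathione synthesis, rose in both lines, by 1.57 ± 0.06 (adjusted p = 1.7e-08) in SU-DHL-8 and 2.49 ± 0.06 (adjusted p = 1.5e-09) in Farage. Of the exon bases of SLC7A11-AS1, 17.0% lie opposite exons of another gene.

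DLGAP1-AS1 and DLGAP1-AS2 share a partner, the synaptic scaffold gene DLGAP1, and rose together in both lines. DLGAP1-AS1 went from 1.15, 0.792 and 1.198 to 2.46, 3.59 and 3.01 FPKM in Farage, a change of 0.97 ± 0.16 (adjusted p = 0.00064), and changed by 1.21 ± 0.16 (adjusted p = 0.00011) in SU-DHL-8. DLGAP1-AS2 went from 0.431, 0.461 and 0.32 to 1.96, 1.903 and 2.02 in Farage, a change of 1.08 ± 0.10 (adjusted p = 1.4e-05), and changed by 0.97 ± 0.10 (adjusted p = 2.3e-05) in SU-DHL-8. DLGAP1 stayed at or under 0.247 FPKM in every library. UST-AS1, inside the sulfotransferase gene UST, went from 0.96, 1.88 and 0.887 to 3.93, 2.17 and 2.88 in Farage, a change of 0.83 ± 0.19 (adjusted p = 0.0048), and UST by 0.95 ± 0.10 (adjusted p = 2e-05).

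The remaining Farage rises named by the rule were less secure. NADK2-AS1 went from 0.586, 0.411 and 0.628 to 1.21, 1.93 and 1.94 FPKM, a change of 0.79 ± 0.22 (adjusted p = 0.015). PRKX-AS1 went from 1.23, 1.36 and 0.584 to 1.91, 3.0002 and 2.35, a change of 0.74 ± 0.22 (adjusted p = 0.021). Their adjusted p became 0.0503 without Farage control library 2 for NADK2-AS1 and 0.0794 without Farage control library 3 for PRKX-AS1, and both calls were also lost without morusinol library 2. The partners rose in Farage, NADK2, the mitochondrial NAD kinase, by 0.69 ± 0.09 (adjusted p = 0.00011) and PRKX, a cAMP-type protein kinase on the X chromosome, by 1.72 ± 0.06 (adjusted p = 1.1e-08).

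The largest Farage falls were mostly of antisense genes inside a partner that fell with them. PRKCE-AS1 (chr2:45674701-45675476) went from 5.99, 6.26 and 5.08 to 1.796, 2.43 and 1.75 FPKM, a change of -1.18 ± 0.18 (adjusted p = 0.00035), and PRKCE, protein kinase C epsilon, fell by 0.60 ± 0.07 (adjusted p = 9e-05). BCAR3-AS1 (chr1:93592199-93605573) went from 6.64, 8.51 and 7.19 to 2.88, 2.79 and 3.47, a change of -1.06 ± 0.10 (adjusted p = 1.5e-05), and the signalling adaptor BCAR3 fell by 0.23 ± 0.07 (adjusted p = 0.016). BFSP2-AS1 went from 3.48, 3.37 and 4.15 to 1.105, 0.657 and 1.62, a change of -1.15 ± 0.15 (adjusted p = 0.00014), and BFSP2, known as a lens filament gene, by -0.94 ± 0.21 (adjusted p = 0.0039). C12orf75-AS1 went from 3.94, 2.94 and 3.08 to 0.936, 0.778 and 1.11, a change of -1.15 ± 0.11 (adjusted p = 1.7e-05), and C12orf75 by -0.98 ± 0.08 (adjusted p = 5e-06). None of these 4 overlapped between the Farage groups, and in SU-DHL-8 BCAR3-AS1, BFSP2-AS1 and C12orf75-AS1 stayed at or under 0.151 FPKM.

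VPS9D1-AS1 went from 6.14, 4.204 and 3.66 to 1.33, 2.56 and 1.57 FPKM in Farage, a change of -1.01 ± 0.19 (adjusted p = 0.0017), with VPS9D1 at -0.54 ± 0.09 (adjusted p = 0.00063). TONSL-AS1 changed in Farage by -1.05 ± 0.26 (adjusted p = 0.0084). LPP-AS1, which met the level rule through Farage control alone, was at 1.71, 3.703 and 1.04 and then 0.4, 0.432 and 0.567, and LPP, a focal adhesion protein, fell by 1.15 ± 0.08 (adjusted p = 1.4e-06). All 3 antisense genes of KCNMA1, a calcium-activated potassium channel gene, were listed at 0 in every SU-DHL-8 library. In Farage KCNMA1-AS3 went from 5.36, 6.56 and 5.11 to 3.87, 2.89 and 3.89, without overlap, and KCNMA1-AS2 from 2.25, 4.41 and 3.96 to 2.77, 0.467 and 0.919, with overlap. KCNMA1-AS1 met the rule through Farage control alone and was at 1.83, 2.39 and 1.25 and 0.951, 0.968 and 0.972. These 3 were picked out after their values were seen.

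GAS5-AS1 (chr1:173863248-173863941) parted from GAS5, the host RNA of small nucleolar RNAs that accumulates when growth stops. GAS5-AS1 went from 7.65, 7.73 and 7.59 to 2.72, 3.34 and 3.67 FPKM in Farage, a change of -1.03 ± 0.09 (adjusted p = 5.2e-06), and was not called in SU-DHL-8, at 10.04, 9.86 and 12.01 and 11.3, 10.8 and 11.5. GAS5 rose in SU-DHL-8 from 137, 142 and 133 to 229, 227 and 217, a change of 0.71 ± 0.07 (adjusted p = 9.1e-06), and was not called in Farage (adjusted p = 0.13). The responses of the lines differed for GAS5-AS1 by -1.10 ± 0.12 (adjusted p = 7.9e-05).

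Across the 428 antisense genes with a tested partner, the response of the antisense gene and that of the partner went together loosely. In SU-DHL-8 82 pairs were both called in the same direction (63 higher, 19 lower) and 31 in opposite directions, 43 had the antisense gene called alone, 157 the partner alone and 115 neither. In Farage 67 were called in the same direction (24 higher, 43 lower) and 11 in opposite directions, 28 had the antisense gene alone, 198 the partner alone and 124 neither. Pearson's r of the log2 fold changes across pairs was 0.409 in SU-DHL-8 and 0.513 in Farage. For genes inside the partner it was 0.454 and 0.671 over 171 pairs, and for head to head genes 0.478 and 0.408 over 166. Pairs are not independent, since all come from the same libraries, some share a partner, and fragments from shared bases may count for both.

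**Figure D5:**
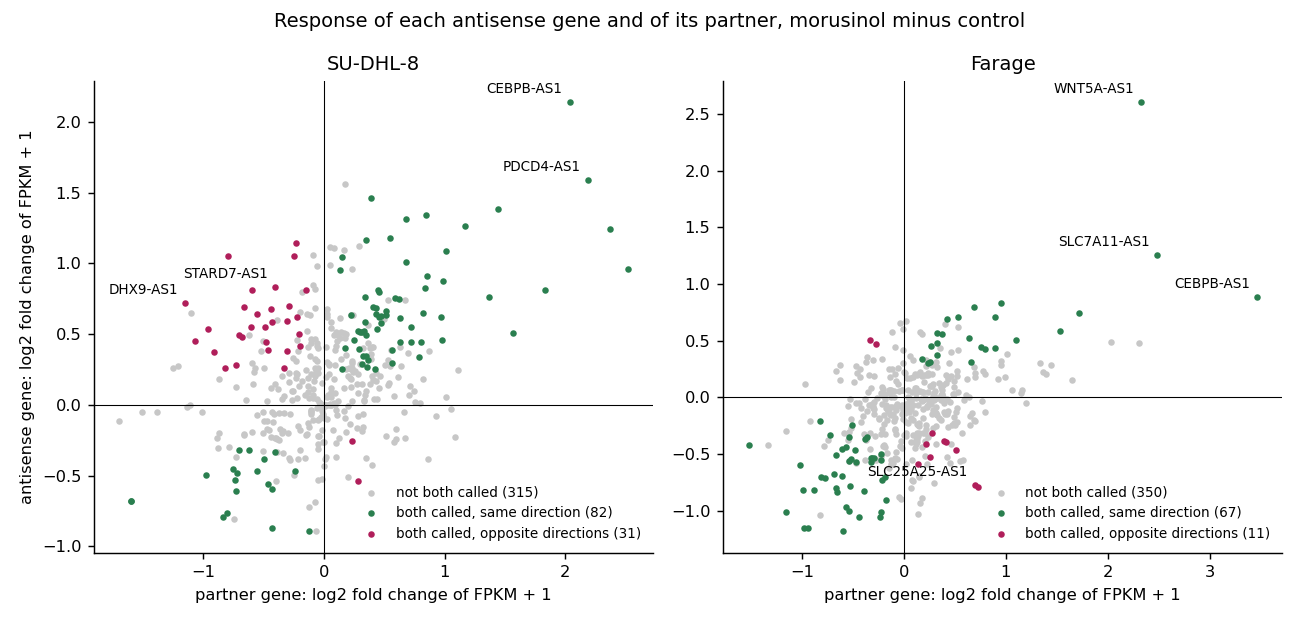
Log2 fold change of FPKM + 1, morusinol minus control, of each antisense gene (y axis) against that of its partner (x axis) for 428 pairs in SU-DHL-8 (left) and Farage (right). Pairs called in the same direction are green (82 and 67) and pairs called in opposite directions red (31 and 11); most red points in SU-DHL-8 lie at the upper left, with the antisense gene higher and the partner lower.

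In 29 of the 31 opposite pairs in SU-DHL-8 the antisense gene rose and the partner fell, and in 26 of 28 without those that met the level rule through 1 group alone. Antisense genes called in the same direction as their partner also mostly rose there, 63 higher and 19 lower. The split of the opposite pairs thus goes with the balance of calls among the antisense genes at large. Head to head lay 19 of the 31. Calls of both genes held in each of the 12 fits that leave out 1 library for 16 pairs. Among these, DHX9-AS1 went from 2.04, 1.87 and 2.57 to 5.21, 4.21 and 3.27 FPKM, a change of 0.72 ± 0.16 (adjusted p = 0.0033), and DHX9, a helicase that unwinds double-stranded RNA, from 124, 129.6 and 121 to 55.8, 56.01 and 55.9, a change of -1.15 ± 0.03 (adjusted p = 1.7e-09). With a pseudocount of 0.1 in place of 1 the adjusted p of DHX9-AS1 was 0.144. STARD7-AS1 (chr2:96208416-96242621) went from 2.11, 2.596 and 2.56 to 5.16, 4.26 and 5.94, a change of 0.83 ± 0.10 (adjusted p = 7.1e-05), and STARD7, a carrier of phosphatidylcholine to mitochondria, from 102, 107 and 102 to 78.6, 77.01 and 78.98, a change of -0.40 ± 0.04 (adjusted p = 8.9e-06). In Farage both rose, STARD7-AS1 by 0.37 ± 0.10 (adjusted p = 0.015) and STARD7 by 0.33 ± 0.04 (adjusted p = 6e-05); without Farage control library 1 the adjusted p of STARD7-AS1 there was 0.0582.

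HMGN3-AS1 rose by 0.54 ± 0.13 (adjusted p = 0.005) and the nucleosome-binding HMGN3 fell by 0.96 ± 0.08 (adjusted p = 3.7e-06). NUP153-AS1, with 51.3% of its exon bases opposite another gene's exons, rose by 0.68 ± 0.12 (adjusted p = 0.0008), and the nuclear pore gene NUP153 fell by 0.44 ± 0.04 (adjusted p = 1.6e-05). ZBTB11-AS1 rose by 0.62 ± 0.08 (adjusted p = 7.3e-05) and the zinc finger gene ZBTB11 fell by 0.22 ± 0.05 (adjusted p = 0.0051).

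NIFK-AS1, tail to tail with the nucleolar gene NIFK, rose from 1.16, 1.15 and 1.19 to 2.78, 2.71 and 2.93 FPKM, and NIFK fell by 0.59 ± 0.07 (adjusted p = 3e-05). The groups of NIFK-AS1 lay far apart in relation to their spread, and its change was 0.81 ± 0.10 (adjusted p = 7.9e-05). PSMA3-AS1 rose by 0.26 ± 0.07 (adjusted p = 0.011) and the proteasome subunit gene PSMA3 fell by 0.82 ± 0.05 (adjusted p = 5.6e-07), and the call of PSMA3-AS1 was lost after rescaling to TPM (adjusted p = 0.115). PCBP1-AS1 spans PCBP1, a single-exon gene of an RNA-binding protein, and rose by 0.49 ± 0.08 (adjusted p = 0.00043) where PCBP1 fell by 0.70 ± 0.09 (adjusted p = 9.1e-05). PRKAR1B-AS1, inside the gene of a regulatory subunit of protein kinase A, rose by 1.05 ± 0.17 (adjusted p = 0.00052) and PRKAR1B fell by 0.79 ± 0.08 (adjusted p = 1.1e-05).

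Others of the 16 lie head to head. UBQLN1-AS1 changed by 0.70 ± 0.18 and UBQLN1, a shuttle factor to the proteasome, by -0.29 ± 0.05. PSMG3-AS1 changed by 0.55 ± 0.09 and PSMG3, a chaperone of proteasome assembly, by -0.60 ± 0.08. CD63-AS1 changed by 0.69 ± 0.18 and the lysosomal tetraspanin CD63 by -0.66 ± 0.06, a pair in which the CD63-AS1 call was lost with a pseudocount of 0.1 (adjusted p = 0.141). FBXL19-AS1 changed by 0.48 ± 0.09 with FBXL19 at -0.68 ± 0.06, NARF-AS2 by 0.65 ± 0.15 with NARF at -0.56 ± 0.08, and ACTR3-AS1 by 0.45 ± 0.12 with the actin-nucleating ACTR3 at -0.48 ± 0.04. ACTR3-AS1 starts 46604 bases from ACTR3 and NARF-AS1, the other antisense gene of NARF, was not called. The largest adjusted p in these pairs was 0.011.

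The other 15 opposite pairs in SU-DHL-8 lost a call in the antisense gene or the partner in at least 1 of the 12 fits. On the side of the antisense gene RALY-AS1 lost its call in 10 fits, DNAJC9-AS1 in 7, DUT-AS1 in 6, SUCLA2-AS1 in 4 and CSRP1-AS1 and GTF3C2-AS2 in 1 each. On the side of the partner MAPKAPK5 lost its call in 9 fits, CSRP1 and PCED1B in 8, PRKAR2A and L3MBTL2 in 4, TMEM147 in 2 and OIP5 and SLC25A25 in 1 each. Their partners include DUT, which removes dUTP from the nucleotide pool (-0.91 ± 0.05), and DNAJC9, a histone chaperone (-1.07 ± 0.07). PRKAR2A-AS1, L3MBTL2-AS1 and SGSM2-AS1 met the level rule through SU-DHL-8 morusinol alone. L3MBTL2-AS1 was at 0.34, 0.279 and 0.499 and 1.94, 2.02 and 2.13 FPKM there, PRKAR2A-AS1 at 0.357, 0.383 and 0.552 and 1.37, 1.57 and 1.58, and SGSM2-AS1 at 0.638, 0.571 and 0.822 and 1.18, 1.27 and 1.08.

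SLC25A25-AS1 (chr9:128108581-128118693, tail to tail) was opposite to its partner in both lines, as the antisense gene that fell. It went from 2.22, 2.05 and 2.29 to 1.25, 1.24 and 1.09 FPKM in SU-DHL-8, a change of -0.54 ± 0.08 (adjusted p = 0.00021), and from 3.36, 4.2 and 3.68 to 1.76, 1.75 and 1.79 in Farage, a change of -0.78 ± 0.08 (adjusted p = 1.9e-05). SLC25A25, a mitochondrial carrier of ATP-magnesium and phosphate, rose by 0.29 ± 0.08 (adjusted p = 0.013) and 0.69 ± 0.08 (adjusted p = 5.1e-05). The Farage pair kept both calls with any library left out, and in SU-DHL-8 the SLC25A25 call was lost in 1 of the 12 fits.

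In Farage 9 of the 11 opposite pairs had the antisense gene lower and the partner higher, the reverse of SU-DHL-8. Pairs called in the same direction were also more often lower there, 43 against 24 higher, so this split too goes with the balance of calls. Of the 11 opposite pairs 4 kept both calls in all 12 fits. Beside SLC25A25-AS1 these were KMT2E-AS1, KANSL1-AS1 and SKAP1-AS2. KMT2E-AS1, whose start lies 142 bases from that of the chromatin reader KMT2E, went from 10.1, 8.31 and 9.498 to 6.04, 7.31 and 7.28 FPKM, a change of -0.39 ± 0.09 (adjusted p = 0.007), and KMT2E rose by 0.39 ± 0.08 (adjusted p = 0.0025). KANSL1-AS1 fell by 0.46 ± 0.12 (adjusted p = 0.011) and KANSL1, of a histone acetylase complex, rose by 0.51 ± 0.06 (adjusted p = 4.7e-05). SKAP1-AS2 went from 4.96, 6.56 and 4.88 to 3.62, 3.4 and 3.33, a change of -0.53 ± 0.10 (adjusted p = 0.0019), and the adaptor gene SKAP1 rose by 0.26 ± 0.07 (adjusted p = 0.0092); SKAP1-AS1 was not called.

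The other 7 Farage pairs lost a call in at least 1 of the 12 fits. GABPB1-AS1, head to head with a subunit gene of the ETS factor GABP, changed by -0.31 ± 0.09 (adjusted p = 0.014) and GABPB1 by 0.27 ± 0.07 (adjusted p = 0.0092), and the GABPB1-AS1 call was lost without Farage control library 2 (adjusted p = 0.0567). NFYC-AS1 changed by -0.41 ± 0.08 (adjusted p = 0.002), and NFYC, a subunit of the CCAAT-binding factor, by 0.21 ± 0.06 (adjusted p = 0.019) with its call lost in 3 fits. PPP1R15B-AS1 changed by -0.79 ± 0.24, and PPP1R15B, which directs the phosphatase of eIF2 alpha, by 0.73 ± 0.05. The call of PPP1R15B-AS1 was lost in 3 fits, that of FAF1-AS1 in 4, HPS1-AS1 in 4, and ZSCAN16-AS1 in 10, and the partners FAF1 and ZSCAN16 lost theirs in 4 and 5. HPS1-AS1 rose where its partner fell, and MIDEAS-AS1, which met the level rule through SU-DHL-8 morusinol alone, was also higher in Farage.

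The responses of the lines differed most, among the antisense genes named by the rule, for WNT5A-AS1 and then for 5 genes that were lower in Farage. PPP1R35-AS1, with 59.1% of its exon bases opposite another gene, stood at 0, 0.465 and 0.223 FPKM in the SU-DHL-8 controls, at 2.04, 3.27 and 0.551 with morusinol, and in Farage at 1.13, 1.24 and 0.995 and 0.391, 0 and 0.308, a difference of -1.96 ± 0.45 (adjusted p = 0.0066). MYB-AS1, inside the gene of the haematopoietic factor MYB, was at 1.17, 1.02 and 1.66 and 4.42, 3.49 and 2.902 in SU-DHL-8 and at 1.23, 2.88 and 2.89 and 1.41, 0.357 and 1.25 in Farage, a difference of -1.74 ± 0.38 (adjusted p = 0.0051). MYB rose in SU-DHL-8 by 0.68 ± 0.04 (adjusted p = 2.1e-07) and was not called in Farage. FOCAD-AS1 gave a difference of -1.73 ± 0.40 (adjusted p = 0.0074), MAP3K5-AS2 of -1.70 ± 0.27 (adjusted p = 0.00079) and NCOA7-AS1 of -1.52 ± 0.43 (adjusted p = 0.019). The Farage fall of MYB-AS1 was itself lost in 10 of the 12 fits, to an adjusted p of up to 0.171, and the Farage groups of MYB-AS1 overlap.

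GABPB1-AS1 is 1 of the 13 that rose in SU-DHL-8 and fell in Farage. It went from 2.96, 2.72 and 3.23 to 6.03, 7.42 and 7.22 FPKM in SU-DHL-8, a change of 0.99 ± 0.09 (adjusted p = 5.2e-06), and from 3.201, 3.59 and 2.95 to 2.35, 2.27 and 2.61 in Farage. The difference of the responses was -1.30 ± 0.12 (adjusted p = 2.7e-05), and GABPB1 itself was not called in SU-DHL-8 (adjusted p = 0.61). KANSL1-AS1, KMT2E-AS1, NFYC-AS1, TMEM147-AS1 and ACTR3-AS1 were also among the 13, with differences of -0.96, -0.71, -0.76, -0.97 and -1.04. The largest adjusted p of these 5 differences was 0.0022. The SU-DHL-8 rise of KMT2E-AS1 was lost in 2 of the 12 fits, with an adjusted p of up to 0.0651, and the Farage fall of TMEM147-AS1 also in 2, with up to 0.0595.

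By level, the antisense genes were led by OIP5-AS1 (also known as Cyrano, chr15:41283990-41309737). Its FPKM was 34.3, 37.4 and 35.4 in SU-DHL-8 control, 44.6, 48.1 and 48.6 with morusinol, 16.5, 17.6 and 17.2 in Farage control and 17.3, 16.6 and 20.2 with morusinol. It rose in SU-DHL-8 by 0.39 ± 0.07 (adjusted p = 0.0007), was not called in Farage, and was above its partner OIP5, a centromere gene, in every library. FGD5-AS1 was at 16.2, 16.4 and 15.3 and 11.9, 10.4 and 11.5 in SU-DHL-8, a change of -0.47 ± 0.06 (adjusted p = 4.8e-05), and at 12.6, 12.3 and 12.4 and 11.3, 11.9 and 12.8 in Farage, while FGD5 stayed at or under 0.0598. PCED1B-AS1 was at 7.64, 7.48 and 7.84 and 6.11, 6.896 and 5.81 in SU-DHL-8 and at 19.2, 18.4 and 19.9 and 17.2, 18.1 and 17.1 in Farage.

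THAP9-AS1 and MAPKAPK5-AS1, head to head, rose in both lines. THAP9-AS1 went from 7.88, 7.999 and 7.63 to 10.6, 11.1 and 9.95 FPKM in SU-DHL-8 and from 7.04, 7.07 and 6.95 to 10.2, 10.1 and 12.3 in Farage, changes of 0.39 ± 0.07 (adjusted p = 0.00067) and 0.56 ± 0.07 (adjusted p = 5.9e-05). THAP9, derived from a DNA transposase, rose with it, by 0.57 ± 0.11 (adjusted p = 0.0018) and 0.37 ± 0.11 (adjusted p = 0.021). MAPKAPK5-AS1 changed by 0.41 ± 0.07 (adjusted p = 0.0006) and 0.58 ± 0.07 (adjusted p = 7.3e-05), and the kinase gene MAPKAPK5 was not called in Farage. The responses of the lines were not called different for either gene (adjusted p = 0.18 and 0.24), which does not show that they are alike.

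Untreated lines differed for many antisense genes, and since the level rule can be met in 1 line alone these differences are given as levels. In the comparison of Farage control with SU-DHL-8 control 184 were higher and 98 lower, where all genes gave 34.5% and 29.6% (64.1% in either direction) and low genes 34.6% and 19.5% (54.1%). Of the 214 with 3 libraries at 1 FPKM in each line, 56 were higher and 46 lower (26.2% and 21.5%), beside 29.7% and 35.2% of all genes chosen in the same way. Here too those genes are not matched to the 214 by level. Of the 486, 16 were listed at 0 in all 6 SU-DHL-8 libraries and 1 in all 6 Farage libraries. NAALADL2-AS2 was listed at 0 throughout SU-DHL-8 and stood at 30.9, 33.9 and 27.5 FPKM in Farage control, above its partner NAALADL2 at 1.24, 1.87 and 1.38. With morusinol it fell to 16.4, 18.7 and 20.7, a change of -0.70 ± 0.09 (adjusted p = 9.4e-05).

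Other antisense genes with high Farage and low SU-DHL-8 control levels lie inside partners with the same pattern. ITPKB-AS1 was at 0.305, 0 and 0.0629 and 7.75, 12.6 and 8.01 FPKM in SU-DHL-8 and Farage control, and ITPKB, an inositol trisphosphate kinase of B cell signalling, at 0.896, 1.14 and 1.16 and 52.9, 51.8 and 49.3. BCAR3 was at 0.422, 0.275 and 0.235 and 26.4, 24.6 and 24.03. UST-AS2 was listed at 0 in SU-DHL-8 and stood at 8.72, 7.66 and 6.73 in Farage, with UST at 0.149, 0.13 and 0.0487 and 4.42, 5.02 and 5.57. ABR-AS1 was at 0, 0.599 and 0.288 and 8.53, 7.55 and 6.93, and ABR, a regulator of small GTPases, at 2.05, 1.66 and 2.08 and 20.2, 18.6 and 18.5.

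In the other direction OVCH1-AS1 had an FPKM of 6.39, 6.21 and 6.45 in the SU-DHL-8 controls, against 0.0226, 0.0615 and 0.0431 in those of Farage. ZEB2-AS1 was at 3.73, 3.501 and 3.91 and 0.151, 0.154 and 0.231, and ZEB2, a repressor of epithelial genes that also acts in lymphocytes, at 9.64, 9.47 and 9.87 and 1.12, 1.12 and 1.08. RFX5-AS1 was at 5.18, 4.73 and 4.49 and 0.571, 0.54 and 0.419, and RFX5, a factor of the MHC class II promoters, at 55.7, 53.1 and 53.7 and 17.3, 15.3 and 16.6. STIM2-AS1 was at 4.91, 5.55 and 4.02 and 0.424, 0.605 and 0.776, and STIM2, a calcium sensor of the endoplasmic reticulum, at 20.2, 20.2 and 20.1 and 4.22, 4.25 and 3.68. For ZEB2-AS1, RFX5-AS1 and STIM2-AS1 the control groups of the antisense gene and of the partner lay apart in the same order.

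More exosome genes fell than rose in both lines. Of 22 tested genes of the nuclear exosome and its adaptors 3 rose and 12 fell in SU-DHL-8, and 5 rose and 12 fell in Farage, beside 32.2% and 25.8% of protein-coding genes lower and 30.4% and 32.6% higher. MPHOSPH6, an exosome cofactor, went from 11.4 ± 0.46 to 5.07 ± 0.467 FPKM in SU-DHL-8 (SD, n = 3) and changed by -1.04 ± 0.09 (adjusted p = 4.7e-06) there and -0.71 ± 0.09 (adjusted p = 0.0001) in Farage. SRRT, which links the cap-binding complex to RNA decay, changed by -0.93 ± 0.05 (adjusted p = 2.5e-07) and -0.49 ± 0.05 (adjusted p = 4.3e-05), and the exosome core gene EXOSC9 by -0.82 ± 0.07 (adjusted p = 5.9e-06) and -0.67 ± 0.07 (adjusted p = 3.6e-05). ZCCHC8, of the adaptor NEXT, and ZCCHC7, of the adaptor TRAMP, rose in both lines, ZCCHC8 by 0.60 ± 0.05 (adjusted p = 2e-06) and 1.06 ± 0.05 (adjusted p = 5.3e-08) and ZCCHC7 by 0.82 ± 0.05 (adjusted p = 2.8e-07) and 0.44 ± 0.05 (adjusted p = 4e-05). Their part in the counts of antisense genes was not tested.

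Of the 14 Integrator genes 3 rose and 4 fell in SU-DHL-8, and 4 rose and 7 fell in Farage. The protein-coding shares given for the exosome genes apply here too. Integrator shares in SU-DHL-8 (21.4% higher and 28.6% lower) lay under both protein-coding shares of that line. In Farage the Integrator share higher (28.6%) lay under that of protein-coding genes, and the share lower (7 of 14) lay above theirs. Of 23 tested genes that bind, edit or cut double-stranded RNA 4 rose and 12 fell in SU-DHL-8, and 5 rose and 7 fell in Farage. These are 17.4% higher and 52.2% lower in SU-DHL-8, and 21.7% and 30.4% in Farage. In each line the share higher lay under that of protein-coding genes and the share lower above it, by less in Farage. EIF2AK2, the kinase PKR that double-stranded RNA activates, changed by -0.86 ± 0.05 (adjusted p = 4.2e-07) and -0.97 ± 0.05 (adjusted p = 2.9e-07). IFIH1, the sensor MDA5, rose in SU-DHL-8 by 1.05 ± 0.05 (adjusted p = 2.6e-08) and was not called in Farage. The editing enzyme gene ADAR changed by -0.27 ± 0.05 (adjusted p = 0.0018) and -0.20 ± 0.05 (adjusted p = 0.011), and the Argonaute gene AGO4 rose by 0.86 ± 0.09 (adjusted p = 1.2e-05) and 1.33 ± 0.09 (adjusted p = 7.7e-07).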

How the data were processed

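Per the labels' protocols, the authors made the 12 libraries with a SMARTer kit for mRNA. The deposited table holds FPKM values, 1 column per library, computed by the authors. Their aligner, counter, annotation and use of strand are not stated. The submitters' processing notes name only mouse builds, whereas the gene identifiers are human, so positions come from GENCODE release 29 on GRCh38. Columns marked n were read as control, the remaining group.

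The fragments per library were estimated from the steps of the deposited FPKM values. Between 50.9% and 52.9% of the values under 50 fragments were whole within 0.02 fragments, so no count test was run.

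Values were transformed to log2(FPKM + 1). The 17574 genes that reached 1 FPKM in 3 or more libraries entered a limma 3.58.1 model (R 4.3.3) of group means over the 12 libraries, with an intensity trend and a robust prior. Tests were two-sided, with Benjamini-Hochberg adjustment over all 17574 genes, and a gene was called at an adjusted p under 0.05. The script was tested on simulated data. Python 3.11.15 with pandas 2.3.3, numpy 2.4.6 and, for plots, matplotlib 3.10.9 did the rest. Promoter windows are RefSeq's on GRCh38.p14.

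The antisense genes and lists were chosen with earlier results of these data known. Named are, per line, the 8 largest rises and falls among called genes without overlap and with the higher group's mean at 1 FPKM or more, the 8 highest levels, the 6 largest differences of the responses without overlap in at least 1 line, the 5 largest control differences in each direction, and all pairs called in opposite directions; a few of these genes are counted but not reported here. Alternatives were another pseudocount, other filters, scalings and fits, a replicate block and leaving out each library.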

Additional observations from a re-analysis of the deposited data

Results flagged for a closer look

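Each antisense gene listed here was picked out because its response to morusinol differed between the lines by the limma test of that difference (adjusted p under 0.05 over all 17574 genes tested). The 8 of the 85 named antisense genes that met the level rule through 1 group alone are left out, since the rule used that difference. Of the other 77, 47 did so, 42 with the Farage response lower than that of SU-DHL-8 and 5 with it higher. Many of the 85 were named for large responses or differences, so a high count was built in and is no result of its own. Over all 486 antisense genes 137 differed, 124 of them lower, beside 34.9% of all genes tested and 24.2% of those with a mean FPKM under 5. A value below 0 means that Farage responded less or downward, on the log2 scale of FPKM + 1. With a pseudocount of 0.1 all 47 kept their sign and 37 their call, and the call was lost for PDCD4-AS1, CEBPB-AS1, BFSP2-AS1, CD63-AS1, SUCLA2-AS1, DHX9-AS1, SKAP1-AS2, OVCH1-AS1, PSMG3-AS1 and UST-AS1.

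The lowest differences were those of PPP1R35-AS1 (-1.96), MYB-AS1 (-1.74), FOCAD-AS1 (-1.73), MAP3K5-AS2 (-1.70) and NCOA7-AS1 (-1.52). PPP1R35-AS1, MYB-AS1, FOCAD-AS1 and NCOA7-AS1 have standard errors of 0.45, 0.38, 0.40 and 0.43, and the Farage groups of MYB-AS1, FOCAD-AS1, MAP3K5-AS2 and NCOA7-AS1 overlap. Next came KCNK15-AS1 (-1.47), PCGF3-AS1 (-1.37), PRKCE-AS1 (-1.36), GABPB1-AS1 (-1.30), PDCD4-AS1 (-1.28), CEBPB-AS1 (-1.25) and TAPT1-AS1 (-1.22). Between these and the middle of the list stood C12orf75-AS1 (-1.15), BCAR3-AS1 (-1.14), BFSP2-AS1 (-1.12), GAS5-AS1 (-1.10), ACTR3-AS1 (-1.04), NARF-AS2 (-0.97), TMEM147-AS1 (-0.97), CD63-AS1 (-0.96), KANSL1-AS1 (-0.96) and SUCLA2-AS1 (-0.90).

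Smaller differences downward were those of NUP153-AS1 (-0.89), GTF3C2-AS2 (-0.83), PRKAR1B-AS1 (-0.80), DHX9-AS1 (-0.76), NFYC-AS1 (-0.76), KMT2E-AS1 (-0.71), NAALADL2-AS2 (-0.70), and ZBTB11-AS1 (-0.68). The smallest were those of NIFK-AS1 (-0.58), RALY-AS1 (-0.57), ZSCAN16-AS1 (-0.55), SKAP1-AS2 (-0.53), PCBP1-AS1 (-0.50), FBXL19-AS1 (-0.47), PSMA3-AS1 (-0.47), STARD7-AS1 (-0.46), OVCH1-AS1 (-0.45), PSMG3-AS1 (-0.37) and OIP5-AS1 (-0.32). For C12orf75-AS1, NAALADL2-AS2, SKAP1-AS2 and WNT5A-AS1 all 6 SU-DHL-8 libraries are listed at 0, so the difference rests on Farage alone.

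Upward differences were those of FGD5-AS1 (0.42), UST-AS1 (0.88), SLCO4A1-AS2 (0.96), OGFR-AS1 (1.12) and WNT5A-AS1 (2.60). FGD5-AS1, SLCO4A1-AS2 and OGFR-AS1 fell in SU-DHL-8, while UST-AS1 and WNT5A-AS1 rose in Farage. The difference was lost when 1 library was left out for STARD7-AS1 (7 of the 12 fits), SUCLA2-AS1 (8 of the 12 fits), PSMG3-AS1 (9 of the 12 fits), PRKAR1B-AS1 (7 of the 12 fits), OIP5-AS1 (6 of the 12 fits), DHX9-AS1 (3 of the 12 fits), UST-AS1 (5 of the 12 fits) and ZSCAN16-AS1 (11 of the 12 fits).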

How the results depend on the processing

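Called antisense genes numbered 179 (SU-DHL-8), 120 (Farage), 137 (response difference) and 282 (control difference). They moved by over 1.5 times under 2 changes. The stricter filter, 2 FPKM in 3 libraries, tested 226 of the 486 and called 104, 71, 90 and 162, as fewer genes were tested. Counting only antisense genes at 1 FPKM in 3 libraries of the other line, chosen after seeing the data, gave 116 in SU-DHL-8 and 71 in Farage. Leaving out each library gave 152 to 180 in SU-DHL-8, 95 to 124 in Farage, 110 to 132 for the difference and 255 to 290 for the controls, and 239 to 267 and 240 to 265 for partners in SU-DHL-8 and Farage. Deviations of same-numbered libraries from their group means had correlations of -0.079 to 0.033, and not every library correlated best with its own number. Such deviations from means of 3 libraries cannot decide whether the numbers pair them. With the replicate block the counts were 158, 101, 107 and 273, and 243 and 245 for partners. Rescaling to TPM moved the median control difference of all genes from 0.08 to 0.19 on the log2 scale, and the share of higher calls from 49.6% to 62.5% for the difference over all genes and from 53.4% to 43.0% for partners in SU-DHL-8. No named gene reversed under any of these settings. Of 170 responses of named antisense genes 15 lost their call with a pseudocount of 0.1, 15 with no filter, 15 after rescaling to TPM, 11 with the replicate block and 4 to 13 with 1 library left out. The 170 are the responses of all 85 named genes in both lines. They include the 8 that met the level rule through 1 group alone, and responses not called in the main fit, which had no call to lose. Depth limits the low genes: 1 FPKM at the median length stood for 7.37 fragments in the shallowest library.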

Other observations

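Other classes of long non-coding genes also had more calls higher than lower in SU-DHL-8. Of 196 tested divergent transcripts, named for the gene they lead away from with -DT, 94 were higher and 1 lower there, and 18 higher and 15 lower in Farage. Of 175 tested LINC genes 71 were higher and 10 lower in SU-DHL-8, and 32 higher and 25 lower in Farage. Intronic transcripts (-IT) gave 8 higher and 2 lower of 43 in SU-DHL-8, and 1 higher and 4 lower in Farage. Beside these stand 21.8% higher and 8.95% lower of the genes with a mean FPKM under 5 in SU-DHL-8 and 14.2% and 14.0% in Farage, and 25.1% and 21.6%, and 21.9% and 21.2%, of all genes. The shares were 48.0% and 0.51%, and 9.18% and 7.65%, for -DT genes, 40.6% and 5.71%, and 18.3% and 14.3%, for LINC genes, and 18.6% and 4.65%, and 2.33% and 9.3%, for -IT genes. All 3 classes were chosen by the same level rule over the 12 libraries, so their counts have the same limit as those of the antisense genes.

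Some partners have several antisense genes that met the rule. TMEM44-AS1 rose in SU-DHL-8 from 2.52, 3.18 and 3.396 to 7.24, 6.903 and 8.003 FPKM, a change of 1.06 ± 0.15 (adjusted p = 0.00016), and TMEM44-AS2 was not called (adjusted p = 0.88); the difference between them was not tested. SLCO4A1-AS1 was at 1.78, 2.82 and 2.998 in SU-DHL-8 control and 1.12, 2.05 and 0.61 with morusinol, and SLCO4A1-AS2 at 2.87, 3.41 and 3.69 and 2.295, 1.28 and 1.59. BIRC6-AS1, BIRC6-AS2, DIAPH3-AS1 and DIAPH3-AS2 were not called in either line.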
